A study of Arabidopsis thaliana with 6 samples.

Results

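Binding of the MADS-domain transcription factor FRUITFULL (FUL) was examined at 6 Arabidopsis genes of auxin synthesis: the flavin monooxygenase genes YUC1 (AT4G32540), YUC2 (AT4G13260), YUC4 (AT5G11320) and YUC6 (AT5G25620), and the aminotransferase genes TAA1 (AT1G70560) and TAR2 (AT4G24670). The genes were chosen by name and locus, and are 6 of the 27444 protein-coding genes on 5 chromosomes to which peaks could be assigned. A peak was assigned to a gene when its summit, the position of the highest enrichment, lay in the gene or within 3 kb of either end. All 6 loci carried the stated symbols in the gene table, and no member was filtered out.

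FUL was precipitated as a GFP fusion, expressed from the FUL promoter (pFUL:FUL-GFP), with anti-GFP microbeads, and the DNA was sequenced (ChIP-seq). Inflorescence meristems (IM) came from plants of 4 to 5 weeks that carried pFUL:FUL-GFP together with the transgene 35S:AP1-GR and the mutations ap1-1 and cal-1. In such plants these mutations make the shoot form meristems where flowers would arise, and AP1-GR was left uninduced. The other tissue, pistils at stages 12 to 16, was taken from ful-1 plants with pFUL:FUL-GFP. Both backgrounds were F2 plants of a Ler and Col cross, kept in long days (16 h light) at 21 °C, and no treatment was given. The 6 samples were 2 biological replicates of the ChIP and 1 input per tissue. One peak list per tissue was analysed, named as called on the pooled replicates, so no spread between replicates and no test between tissues could be given. Tissue and genotype differed together and cannot be told apart. Peak lists do not measure expression, so the tissue labels could not be checked against marker genes, and binding near a gene is no measure of its regulation.

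Auxin controls where organs arise at the shoot apex and how the gynoecium is patterned from base to style. The main route to indole-acetic acid (IAA), the principal natural auxin, starts from tryptophan: TAA1 and its relatives convert it to indole-pyruvate, and YUC enzymes convert that to IAA. YUC1 and YUC4 act together in flower and vascular development, YUC2 and YUC6 in stamens and pollen, and TAA1 and TAR2 in several organs including the gynoecium.

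FUL peaks lay near 5 of the 6 genes. YUC1 had a peak in both lists, YUC2 and YUC4 had one in the IM list only, YUC6 and TAR2 had one in the pistil list only, and TAA1 had none in either. The IM peaks at YUC2 and YUC4 had a −log10 p below the lowest of the pistil list, though their folds were above its lowest fold. With 1 list per tissue, the lists do not show a tissue difference at these genes. Each list thus held 3 of the 6 genes. Among all protein-coding genes, 23.7% had an IM summit within the same window and 21.3% a pistil summit. A summit of both lists was found at 15.3% of genes, of IM only at 8.36%, of pistil only at 6.01%, and of either list at 29.7%. For so few genes, chosen by name, these shares are given as background and were not tested. Each gene had 1 listed summit in each list where it had a peak, which made 6 member peaks, 3 in each tissue. The lists hold 1 summit per interval, so further summits within a peak would not be seen.

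**Figure D1:**
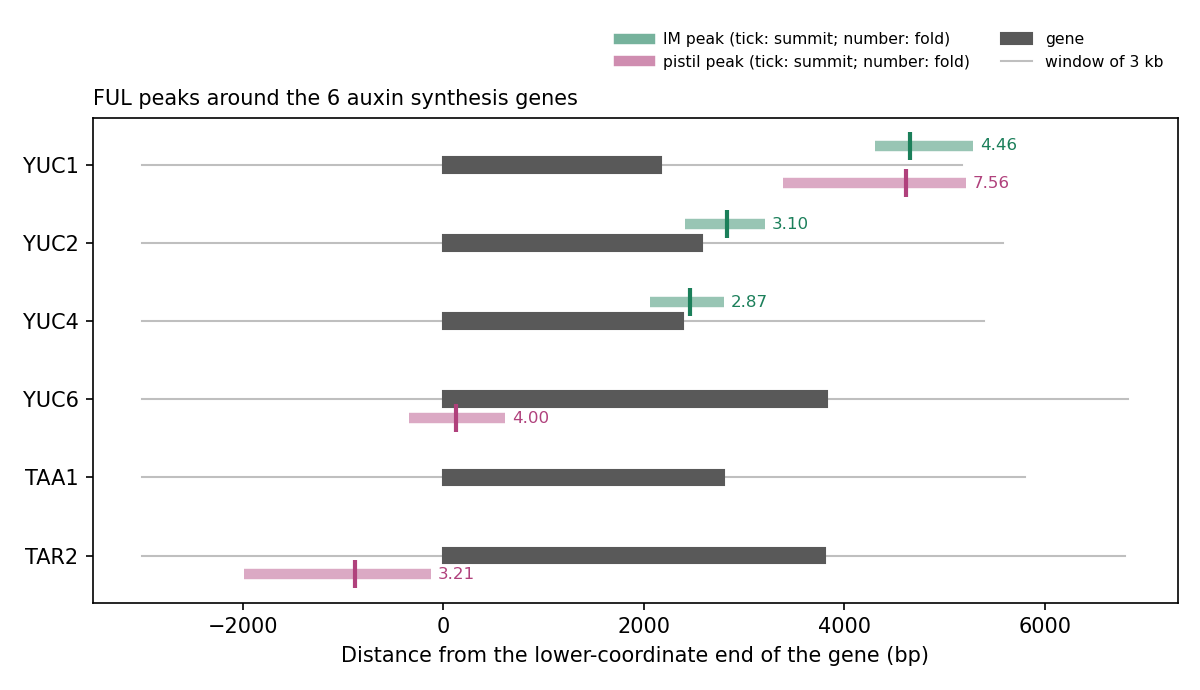
Position of FUL peaks around the 6 auxin synthesis genes, in bp from the lower-coordinate end of each gene. Dark boxes are genes, grey lines the window of 3 kb on either side, green bars IM peaks and magenta bars pistil peaks, with a tick at the summit and the fold enrichment beside it. YUC1 is the one gene with a peak of each list, and TAA1 has no peak in its window.

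YUC1 carried the strongest peak of the 6 genes in each list. Peak positions are given on TAIR10. Fold enrichments are those of the authors, taken at the summit, and serve to describe and rank peaks within their own list. The IM peak at chr4:15705134-15706109 had a fold of 4.46 and a −log10 p of 60.8. It ranked 1080 of 3650 peaks by fold, at the percentile 70.4 of its list. The pistil peak at chr4:15704218-15706038 had a fold of 7.56 and a −log10 p of 213.5, ranked 403 of 3494, at the percentile 88.5. The 2 peaks overlapped by 905 bp, and their summits were 37 bp apart. That overlap was 92.7% of the IM peak and 49.7% of the wider pistil peak.

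The YUC1 summits lay far from the gene and closer to another one. They were 2478 bp (IM) and 2441 bp (pistil) beyond the higher-coordinate end of YUC1, within the window of 3 kb but not within 1 kb. The nearest edge of the peak was 2134 bp from the gene in IM and 1218 bp in pistil. LUG (LEUNIG, AT4G32551), a transcriptional corepressor that acts in floral patterning, lay nearer, at 1947 bp in IM and 1984 bp in pistil. No other protein-coding gene stood within 3 kb of these summits. These were also the only summits within 3 kb of LUG in either list, so position alone does not assign the site to one of the pair.

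YUC2 and YUC4 had peaks in the IM list that were weak and close to the gene. The YUC2 peak, chr4:7723893-7724690, had a fold of 3.10 and a −log10 p of 27.8, and its summit lay 247 bp beyond the higher-coordinate end. The YUC4 peak, chr5:3613311-3614048, had a fold of 2.87 and a −log10 p of 25.2, and its summit lay 66 bp beyond the higher-coordinate end. Both peaks reached into the gene, by 178 bp at YUC2 and 330 bp at YUC4. For both summits the YUC gene was the nearest gene of any class, and the next protein-coding genes were 6872 bp and 3432 bp away.

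By fold the YUC2 peak stood at the percentile 18.1 of the IM list (rank 2992) and the YUC4 peak at 4.96 (rank 3470), in contrast to 70.4 for YUC1. Both also lay below the lowest −log10 p of the pistil list, 34.4, whereas the IM list went down to 22.4. No peak with such a −log10 p is in the pistil list, whose lowest fold was 1.80, but peaks of such a fold are. An example is the pistil peak near PAI1, with a fold of 2.95 and a −log10 p of 37.7. A like fold thus went with a different −log10 p in the 2 lists. With 1 list per tissue, the absence of YUC2 and YUC4 from the pistil list does not show a difference between tissues. Of the 1304 IM peaks below 34.4, 40.1% overlapped a pistil peak (Wilson 95% interval 37.5 to 42.8%, counting error only), against 70.2% (68.3 to 72.0%) of the 2346 others. With this threshold applied to both lists, YUC1 alone remained in IM, and 16.1% of all genes had an IM summit.

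**Figure D2:**
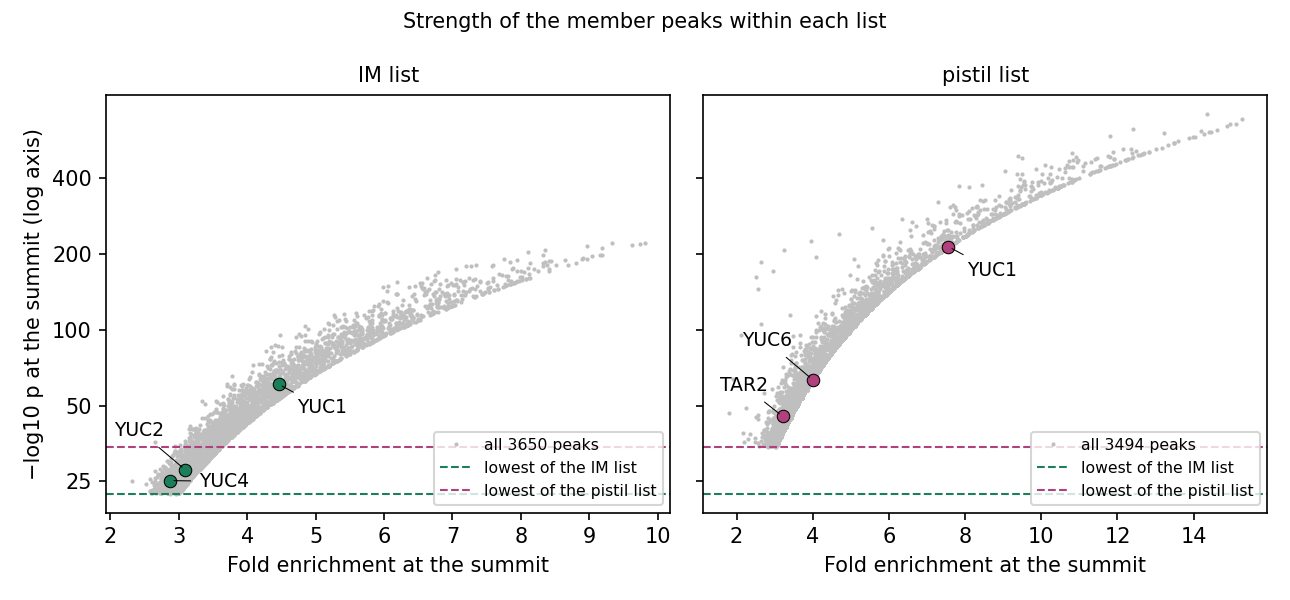
Fold enrichment (x axis) against −log10 p (y axis, log scale) at the summit for all peaks of the IM list (left) and the pistil list (right), with the member peaks labelled. Dashed lines mark the lowest −log10 p of the IM list (22.4) and of the pistil list (34.4), and the YUC2 and YUC4 peaks lie between them.

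YUC6 was the one member with a summit inside the gene. Its pistil peak, chr5:8934604-8935557, had a fold of 4.00 and a −log10 p of 63.3 (rank 1857, percentile 46.8). The summit was 130 bp from the lower-coordinate end of the gene, and the peak covered 617 bp of it. No other protein-coding gene lay within 12152 bp of the summit. The closest IM summit to YUC6 was 14104 bp away, so the gene had no IM peak in its window. The lowest −log10 p was lower in the IM list (22.4) than in the pistil list (34.4), but the lowest fold was higher (2.32 against 1.80).

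TAR2 had a pistil peak of lower fold, with its summit between that gene and a neighbour. The peak, chr4:12725549-12727409, had a fold of 3.21 and a −log10 p of 45.3 (rank 2940, percentile 15.9). Its summit was 881 bp beyond the lower-coordinate end of TAR2 and 815 bp from HB22 (AT4G24660), a homeobox gene, and the peak ended 122 bp short of TAR2 and covered 287 bp of HB22. The summit was the only one within 3 kb of HB22 in the pistil list, and the IM list had none there. The closest IM summit to TAR2 was 19742 bp away.

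The names of the pistil peaks at YUC1 and TAR2 end in a letter, as do those of 1128 of the 3494 pistil peaks (32.3%). MACS2 uses such letters for several summits in one region, but each interval stood once in a list, so other summits under these 2 wide peaks were not analysed here. They were 1821 bp and 1861 bp wide, against a median of 904 bp in the pistil list. The other pistil member peak, at YUC6, was 954 bp wide. The IM peaks were 976 bp (YUC1), 798 bp (YUC2) and 738 bp (YUC4), all below the IM median of 1075.5 bp.

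TAA1, which encodes the best known tryptophan aminotransferase of the route, had no FUL peak nearby. The closest IM summit lay 23946 bp from it, inside the homeobox gene KNAT2, and the closest pistil summit 50143 bp from it, next to TIFY7. Among all protein-coding genes, 70.3% had no summit within 3 kb in either list. Outside the window, the closest summit of a member in the list that lacked it was 5621 bp from YUC2, in the pistil list (fold 3.26), and the others were 14104 bp or more away. Inside the window the most distant summits were those at YUC1. No member count therefore changed with a window of 5 kb.

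Nearness to other genes divided the members. The member itself was the nearest protein-coding gene to the summit for YUC2 and YUC4 in IM and for YUC6 in pistil. Another gene was nearer for YUC1 in both lists and for TAR2. At TAR2 the distances were close, 815 bp to HB22 and 881 bp to TAR2. By the nearest gene alone, 2 members had an IM peak, where 11.8% of all genes did, and 1 had a pistil peak, where 10.8% did. Within 1 kb the counts were 2 in IM (YUC2 and YUC4, background 13.9%) and 2 in pistil (YUC6 and TAR2, background 11.9%).

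The members had long free flanks, which bears on any window. The bases within 3 kb of a gene not covered by another protein-coding gene numbered 6000, the most possible, at YUC1, YUC2 and YUC6, then 5618 at YUC4, 3947 at TAA1 and 2857 at TAR2. The median over all genes was 2540. In all, 5 members fell among the 25% of genes with the longest free flanks, all but TAR2, and of those genes 26.8% had an IM summit and 26.5% a pistil summit. Of the 5 members, 3 had an IM summit and 2 a pistil summit. The part of flank length in the member counts was not tested.

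Of the remaining 10 genes of both families, 8 had no summit in either list, where 70.3% of all protein-coding genes had none. Of the other 7 YUC genes, YUC8 had an IM peak and YUC3 a pistil peak, and YUC5, YUC7, YUC9, YUC10 and YUC11 had none. TAR1, a relative of TAA1, and the loci AT1G34040 and AT1G34060 listed with it had none either. This made 1 of 10 genes in each list, against 3 of 6 members, where 23.7% of all genes had an IM summit and 21.3% a pistil summit. The difference was not tested, and the members were chosen with earlier results of these data known. The YUC8 peak (chr4:14196349-14197262, fold 2.98, −log10 p 24.3) had a fold between those at YUC2 and YUC4, and its summit lay 2468 bp from the gene, with GrxC5 nearer. The YUC3 summit lay inside the gene, as at YUC6 (chr1:1280517-1281321, fold 4.73, −log10 p 101.5).

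**Figure D3:**
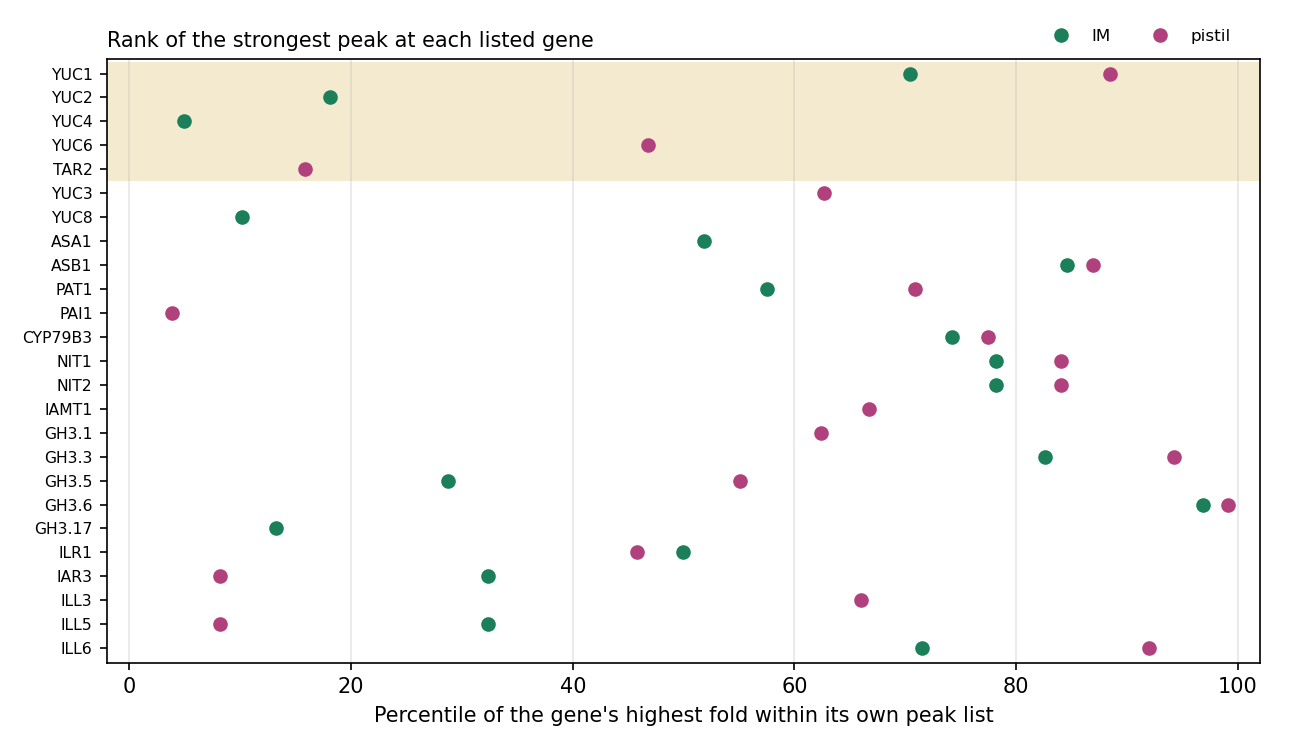
Percentile of the highest fold at each listed gene within its own peak list (x axis, 0 to 100), for the genes with a summit within 3 kb, IM in green and pistil in magenta, members shaded. Among the members only YUC1 lies above the middle of a list, at 70.4 in IM and 88.5 in pistil, while GH3.6 stands highest of all listed genes in both.

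Some genes listed for the loss or release of IAA, namely GH3.3, GH3.6 and ILL6, had higher folds than YUC1 in both lists. A list of 38 further auxin metabolism genes was drawn up by role, of which 14 had an IM summit, 16 a pistil summit and 12 both. Among all protein-coding genes these shares were 23.7%, 21.3% and 15.3%. By the nearest gene alone, 8 of the 38 had an IM peak and 10 a pistil peak. Both were larger shares than among all genes, 11.8% and 10.8%, and the differences were not tested. Of 10 tryptophan synthesis genes, 3 had an IM summit, 3 a pistil summit and 2 both. None of the 10 was the nearest protein-coding gene to a summit of either list. ASB1, a subunit of anthranilate synthase, had folds of 5.37 (IM) and 7.30 (pistil) with AT1G25230 slightly nearer. The fold at YUC1 was lower in IM (4.46) and higher in pistil (7.56). PAT1, the next enzyme of that pathway, had highest folds of 3.97 and 5.31 at a site closer to SAUR19 and VDD. ASA1, another anthranilate synthase subunit, had an IM peak (3.81) that lay 37 bp from AT5G05710.

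Of 7 genes of other routes to IAA, 3 had summits in both lists, where 15.3% of all protein-coding genes did. By the nearest gene alone, 3 had an IM peak and 2 a pistil peak. CYP79B3, which makes indole-acetaldoxime from tryptophan, had highest folds of 4.65 in IM and 5.91 in pistil. The nitrilase genes NIT1 and NIT2 are neighbours and shared their peaks, of which the strongest had its summit inside NIT1 (4.89 and 6.75).

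The 14 genes listed for the loss of IAA or of its precursor include VAS1, an aminotransferase gene acting on indole-pyruvate. Of the 14, 4 (28.6%) had an IM summit and 5 (35.7%) a pistil summit, where 23.7% and 21.3% of all genes did. By the nearest gene alone, the counts were 3 in IM and 5 in pistil. GH3.6, which conjugates IAA to amino acids, had the highest folds of all listed genes, 7.13 in IM (percentile 96.8) and 12.4 in pistil (percentile 99.1). Its relative GH3.3 stood at 5.20 and 9.36. IAMT1, an IAA methyltransferase gene, had a pistil peak (4.99).

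Of 7 genes listed by family for the release of IAA from conjugates, 4 had an IM summit and 5 a pistil summit. Among all protein-coding genes these shares were 23.7% and 21.3%. By the nearest gene alone, the counts were 2 in IM and 3 in pistil. The substrate of each enzyme was not examined here. ILL6 had folds of 4.51 and 8.50 with both summits inside the gene, and ILL3 a pistil fold of 4.94. ILR1 had highest folds of 3.76 and 3.97, but these summits lay inside AT3G02880, 436 bp (IM) and 468 bp (pistil) from ILR1. Another pistil summit, of fold 3.32, lay 173 bp from ILR1 and had it as the nearest gene. The neighbours IAR3 and ILL5 counted the same peak of each list. The counts by role hold shared peaks and were not tested against the background.

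**Figure D4:**
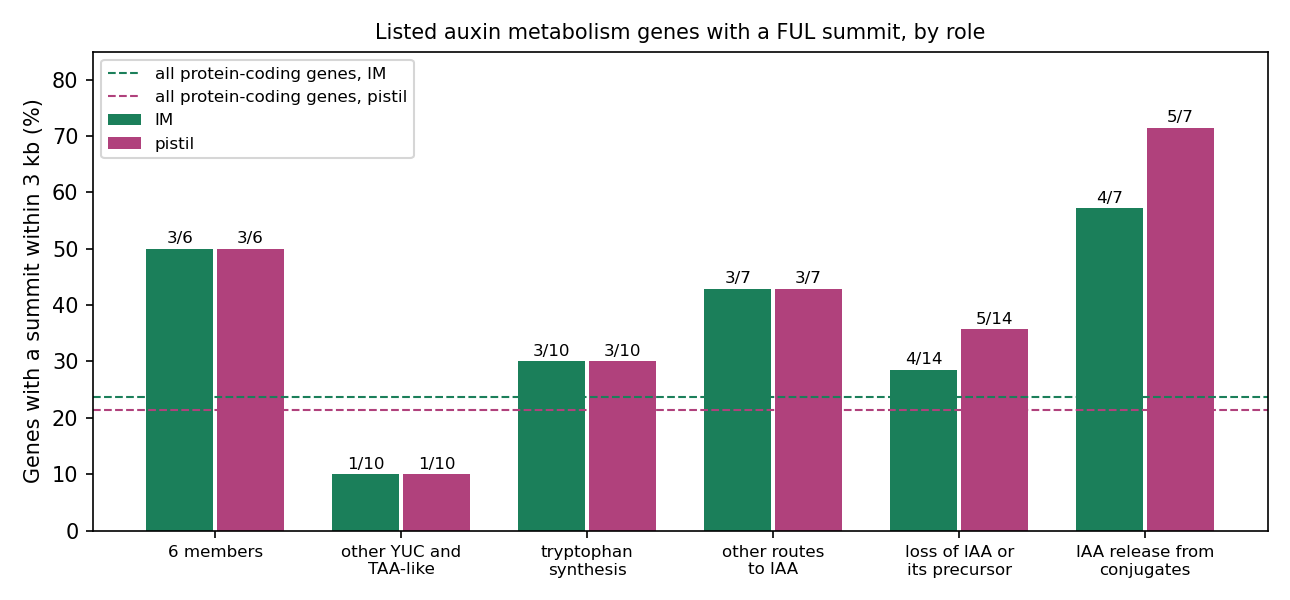
Share of genes with a FUL summit within 3 kb (y axis, %) for the 6 members and the other listed auxin metabolism genes by role, IM in green and pistil in magenta, with counts over the bars. Dashed lines mark the share of all protein-coding genes, 23.7% in IM and 21.3% in pistil, and the other YUC and TAA-like genes are the one group below both lines.

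The listed gene most like YUC1, the one member found in both lists, was ILL6. The measure was the distance between their pairs of fold percentiles, over 2 tissues and among 12 genes with a peak in both lists. NIT1 and NIT2 share their strongest peaks, as do IAR3 and ILL5, so fewer sites than genes were compared. ILL6 stood at 71.5 in IM and 92.0 in pistil, a distance of 3.70 percentile points from YUC1. The measure took no account of position: both ILL6 summits lay inside the gene, whereas LUG was nearer than YUC1 to the YUC1 summits.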

How the data were processed

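Peaks from ChIP-seq of FUL-GFP in IM and pistil were analysed. Per the submitters' processing notes, the tools were MACS2 2.1.0, Bowtie 1.1.2, deepTools and Picard 2.60, with TAIR10 as genome build; their order and settings are not listed. The authors deposited 1 narrowPeak list per tissue. The authors' fold enrichment is a ratio, taken where the peak is highest. The deposited −log10 p belongs to the same position, and the deposited score is that value times 10 without its decimals. Peak numbers have gaps (3650 peaks up to number 13754 in IM, 3494 up to 14602 in pistil), so each list is a selection. How peaks were selected and how the input and duplicate reads were handled is not given in the sources used here. Read depth is unknown.

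The summit was the peak start plus the offset of the deposited list, counted from 1. Gene names and positions came from a RefSeq table of assembly TAIR10.1, whose coordinates are not printed. As a check of register, 29.5% of IM and 26.0% of pistil summits lay inside genes in place, and at least 60.2% and 56.3% when moved by 2 to 10 kb. The table holds no strand, so ends are called lower or higher by coordinate. No sequence was used here. Peaks overlapping by 1 bp or more were called shared. The assignment functions were tested on simulated data. Of the 54 listed genes, 5 were matched by locus only.

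Named genes were all 6 members with each of their peaks and the nearest gene, up to 3 further genes per role with the highest fold percentile, and the gene most like each member found in both lists. Other genes named were singled out after their values were seen. The members and lists were chosen with earlier results of these data known. Shares carry Wilson 95% intervals where given. Python 3.11.15, numpy 2.4.6, pandas 2.3.3, scipy 1.17.1 and matplotlib 3.10.9 were used.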

Additional observations from a re-analysis of the deposited data

How the results depend on the processing

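The IM count of 3 members became 1 (YUC1) with 1 threshold on −log10 p for both lists, and also 1 (YUC1) with peaks of a fold above the list's median only. The pistil count of 3 became 1 (YUC1) with folds above the median and 1 (YUC6) with the nearest protein-coding gene only. The shared site at YUC1 was lost (0 sites) when the overlap had to be at least 50% of each peak, since it covered 49.7% of the pistil peak, and it was kept with summits within 250 bp and with 1 threshold on −log10 p. A window of 5 kb and any base of the peak in the window left both counts at 3, and a window of 1 kb gave 2 in each list. No paired analysis was possible because each tissue has 1 peak list called on both replicates. For the same reason, leaving out a replicate was not run. Lists that end at different −log10 p values and hold a selection of peaks limit every statement on absence.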

Other observations

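LUG and HB22, the genes nearer than the member to the YUC1 and TAR2 summits, are themselves regulators of development. Each had 1 summit within 3 kb in the pistil list, and LUG also had 1 in the IM list. KNAT2, a homeobox gene of the shoot meristem, held the IM summit closest to TAA1, with a fold of 6.09 and a −log10 p of 97.2, higher than at any member in that list. The pistil summit closest to YUC4, 30798 bp away and 109 bp from AT5G11420, had a fold of 6.08.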
